A study of Mus musculus with 6 samples.

Results

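The genes described here carry the signal of parathyroid hormone (PTH) through cyclic AMP (cAMP) in bone cells. The set was chosen by name, with earlier results of these data known. It holds 10 genes: the receptor Pth1r, the ligand gene Pthlh, the G protein gene Gnas, the brakes Rgs2, Pde4b and Pde4d, and the cAMP-responsive transcription factor genes Crem, Nr4a1, Nr4a2 and Nr4a3. All 10 are among the 29616 genes of the deposited table. RNA was sequenced from 3 control libraries and 3 dexamethasone libraries, all from C57BL/6 mice. Treatment began at 8 weeks of age and ran for 4 weeks, with a daily dose of 0.08 µg of this synthetic glucocorticoid per g of body weight. No genetic change is named for any of these mice, and the labels say of the other group only that it is the control, while the study names saline for control mice of this treatment. The labels call the material bone cells, and the study's methods describe cells released by collagenase from femurs cleared of marrow, fixed and permeabilized for antibody staining, and taken as Osteocalcin-positive. The series calls the 3 libraries of each group biological replicates, but whether each came from a single mouse or a pool is not stated, so the p-values measure the spread between these libraries.

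PTH and PTH-related protein (encoded by Pthlh) bind the same receptor, PTH1R, on osteoblasts and osteocytes. The receptor couples to Gsα, the product of Gnas, which switches on adenylyl cyclase, and the cAMP formed activates protein kinase A (PKA) and, through it, the transcription factor CREB. RGS2 damps signalling by G protein-coupled receptors, phosphodiesterases of the PDE4 family break cAMP down, and short inhibitory products of Crem and the NR4A orphan nuclear receptors are among the classical genes that CREB turns on rapidly.

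The libraries held 72596611 to 89910728 reads, and the deposited values are these reads divided by a size factor per library, called normalized counts below. The test took in the 17442 genes whose mean reached 10. A gene was called differentially expressed at a limma adjusted p under 0.05 with a log2 fold change, on the scale of log2 (normalized count + 1), of at least 1 in either direction. This was met by 22.3% of the tested genes, by 10.6% in the lower direction and by 11.7% in the higher direction. When all libraries were set to the same total, the median of all tested genes moved from 0.00 to -0.11 on the log2 scale, so that small fold changes depend on the scaling. The treatment showed in a list of 12 glucocorticoid-induced genes, of which 9 were differentially expressed and higher and 0 lower with dexamethasone. Among 9 osteoblast markers 8 were lower and 1 (Spp1, osteopontin) was higher. Bglap, a gene for the Osteocalcin used for the sort, had 98.2 to 122 normalized counts in the controls and 9.54 to 15.1 with dexamethasone. Bglap2, also among the 9 markers, was 1 of the 8 that were lower. Col1a1, the type I collagen gene, was at 926459.5 to 991151 in the controls and 247337 to 281338 with dexamethasone.

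Of the 10 members, 9 were abundant enough to be tested and 4 were differentially expressed, all 4 lower with dexamethasone: Pth1r, Pde4b, Pde4d and Nr4a3. Beside these, 22.3% of all tested genes were differentially expressed, and 10.6% in the lower direction. With an adjusted p under 0.05 but a smaller fold change, Nr4a1, Crem and Gnas were lower and Rgs2 was higher. Nr4a2 did not pass the test, and Pthlh was too scarce to be tested. At an adjusted p under 0.05 alone, 8 of the 9 tested members passed, 7 lower and 1 higher, beside 72.5% of all tested genes (35.2% lower and 37.2% higher). The values of the groups did not overlap for 9 of the 9, beside 74.7% of all tested genes. Both criteria were thus met by most genes of the whole table as well. The median log2 fold change of the 9 members was -0.43, beside 0.00 over all tested genes.

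**Figure D1:**
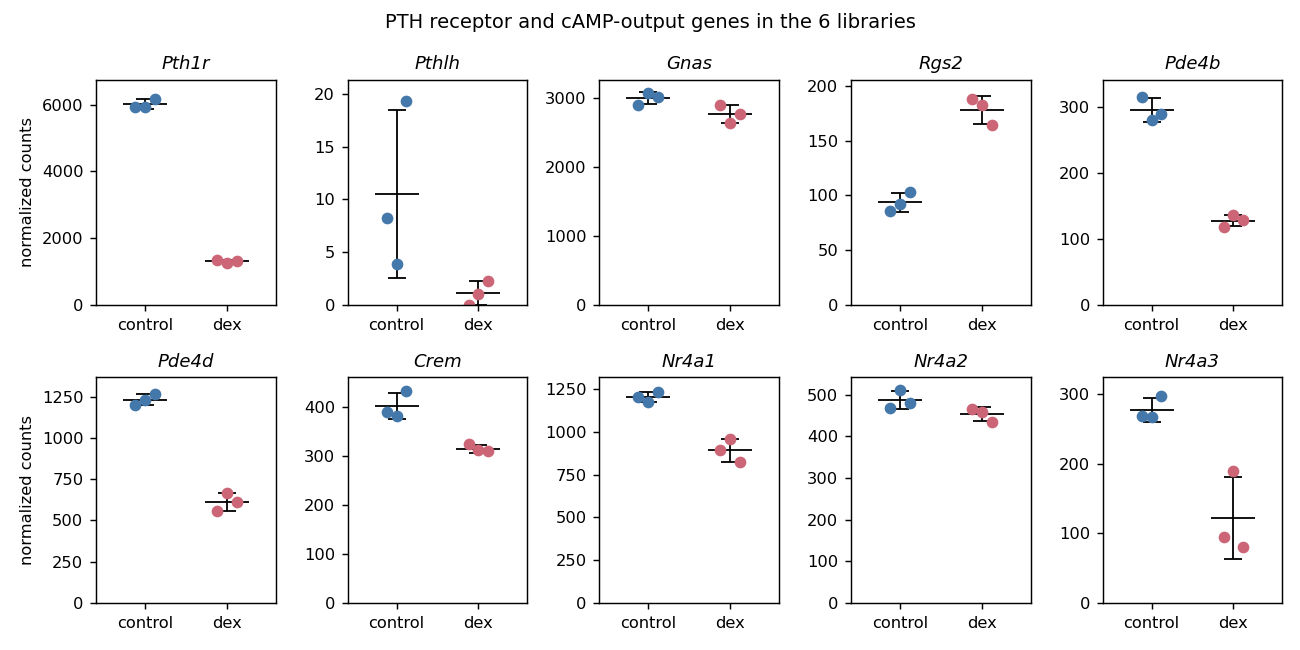
Normalized counts (vertical axes, each from 0) of the 10 genes in the 3 control (blue) and 3 dexamethasone (dex, red) libraries, with the mean as a horizontal line and the SD as error bars. Pth1r fell from 6005 to 1309.8 on average, Rgs2 was the only one of the 10 genes whose dexamethasone values lay above the control values, and for Nr4a3 dexamethasone replicate 2 lay apart at 189.7.

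Pth1r, the common receptor of PTH and PTH-related protein, measured 5916, 5925 and 6175 normalized counts in control replicates 1 to 3. In dexamethasone replicates 1 to 3 it measured 1351, 1260.1 and 1319. Every dexamethasone library lay far below every control library, and the libraries within a group were close to each other. The mean fell from 6005 ± 147 (SD, n = 3) to 1309.8 ± 46.0 (SD, n = 3), which is 4.58-fold lower. On the log2 scale the change was -2.20 ± 0.0416 (standard error; limma adjusted p = 6.33e-24), and it lay between -2.35 and -2.17 over the 17 other settings tried. In these bulk libraries, fewer cells that express the receptor and less receptor RNA per cell cannot be told apart. In the same libraries 8 of the 9 osteoblast markers were differentially expressed and lower and 1 (Spp1) was higher. The median log2 fold change of the 9 was -1.86, with values of -1.86 for Sp7 (Osterix) and -2.45 for Alpl (alkaline phosphatase). Their summed level was 2008899 to 2137565 normalized counts in the controls and 2004918 to 2136481 with dexamethasone. The part of these markers in the change of Pth1r was not tested. Pth1r stayed the member with the most normalized counts per kb of joined exons in both groups, with 2053 ± 50.3 (SD, n = 3) in the controls and 448 ± 15.7 (SD, n = 3) with dexamethasone. In the GENCODE M21 annotation 3.25% of its exon bases lie opposite an exon of Myl3, on the other strand. Over the 6 libraries, the genes whose pattern lay closest to that of Pth1r, among 12020 genes with a mean of at least 100, were Tpm1, Npnt and Gm37800. Their root mean square distances were 0.0255, 0.0312 and 0.0371 on the log2 scale, each gene being taken relative to its own control mean. Their log2 fold changes were -2.19, -2.18 and -2.17, and a distance of this kind mostly picks genes of similar fold change.

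The RefSeq promoter table (GRCm38.p6) holds 3 start sites for Pth1r. It is shown here since this gene had the largest fold change of the tested members. The 250 bases before the most upstream start, chr9:110747146-110747395 on the minus strand, hold a single half-site of the cAMP response element (CRE), CGTCA or TGACG, the element that CREB binds. It is printed in capitals and begins 161 bases before the start. The windows of the other 2 starts hold 0.
Pth1r: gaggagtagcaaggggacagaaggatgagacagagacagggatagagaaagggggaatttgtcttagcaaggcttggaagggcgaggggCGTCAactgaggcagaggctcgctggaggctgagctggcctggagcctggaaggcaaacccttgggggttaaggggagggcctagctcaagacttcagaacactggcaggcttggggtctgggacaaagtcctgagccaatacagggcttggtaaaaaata

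Pthlh, the gene for PTH-related protein, was nearly silent. The controls yielded 9, 4 and 22 reads of it in replicates 1 to 3, and the dexamethasone libraries 0, 1 and 2. At this depth 0 reads cannot be told from up to 3, and no dexamethasone library exceeded that limit. The controls differed among themselves, from 3.91 to 19.3 normalized counts, so that replicate 3 supplied most of their reads. Over the summed reads, 35 against 3 and taken relative to the size factors, Pthlh was 10.1-fold lower with dexamethasone, with an exact 95% interval of 3.20 to 51.6 that covers counting error only. It was 5.80-fold lower without control replicate 3, 6.38-fold lower without dexamethasone replicate 1 and 21.2-fold lower without dexamethasone replicate 3. The mean of Pthlh was under the minimum for testing, so it has no adjusted p among the 17442 genes. The gene for PTH itself, Pth, is not among the genes of the table analysed here, and Pth2r, a related receptor, had at most 4.77 normalized counts in any library.

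Gnas, which encodes the stimulatory G protein α-subunit, had 2900.2, 3069.6 and 3016 normalized counts in the controls and 2898, 2637 and 2769.7 with dexamethasone. The highest dexamethasone library and the lowest control library were nearly equal. The log2 fold change was -0.11 (95% interval -0.20 to -0.03, limma adjusted p = 0.0207). It had an adjusted p under 0.05 in 13 of the 17 other settings, and without dexamethasone replicate 2 it was -0.08 (limma adjusted p = 0.12). Of the exon bases of Gnas, 22.0% lie opposite exons of Nespas or Gm20721 on the other strand. The strand setting of the authors' count is not stated, so reads of these genes may not be kept apart. The count also joins the several products of this imprinted locus.

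Rgs2 encodes a regulator of G protein signalling and is itself a gene that cAMP induces in osteoblasts. It was the only tested member with higher values in the dexamethasone group. It had 86.3, 92.0 and 103 normalized counts in the controls and 188, 182 and 164 with dexamethasone, with no overlap between the groups. The mean went from 93.7 ± 8.39 (SD, n = 3) to 178 ± 12.5 (SD, n = 3). On the log2 scale the change was 0.92 ± 0.132 (standard error), past the test (limma adjusted p = 1.00e-06) but short of the cut-off of 1. It was 0.81 at the same total and 1.00 after quantile normalization.

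Pde4b and Pde4d encode cAMP-specific phosphodiesterases, which end the signal, and both were lower. Pde4b measured 316, 281 and 290.0 normalized counts in the controls and 119, 136 and 129 with dexamethasone. Pde4d had 1197, 1229 and 1265 in the controls and 559, 668 and 609 with dexamethasone. For both genes the dexamethasone libraries lay well below the control libraries, with no overlap. The log2 fold change was -1.20 for Pde4b (standard error 0.109, limma adjusted p = 4.14e-10) and -1.01 for Pde4d (standard error 0.0640, limma adjusted p = 4.10e-13). That of Pde4d lay just past the cut-off, and it was -0.99 without control replicate 3 and -0.95 without dexamethasone replicate 1, where the gene was no longer called. The ratio of Pde4b to Pde4d within a library was taken on (normalized count + 1), so it depends only weakly on the scaling. It was 0.264, 0.229 and 0.230 in the controls and 0.215, 0.205 and 0.213 with dexamethasone. Pde4b was thus lower relative to Pde4d in each dexamethasone library, by 0.19 on the log2 scale (exact two-sided permutation test p = 0.1, the smallest that 3 against 3 libraries allow), and by 0.12 without control replicate 1, whose ratio stood apart. Of the other PDE4 genes, Pde4a passed the test in the higher direction (0.77 on the log2 scale, limma adjusted p = 1.07e-14), short of the cut-off, and Pde4c had at most 4.89 normalized counts in any library.

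Crem encodes activators and repressors of cAMP-responsive transcription, among them the inducible repressor ICER, which a count per gene does not separate. It had 390.2, 383 and 432 normalized counts in the controls and 324, 312 and 309 with dexamethasone. The log2 fold change was -0.35 (standard error 0.0830, limma adjusted p = 0.000631). It was between -0.46 and -0.29 over the 17 other settings, with an adjusted p under 0.05 in all 17. In the annotation 8.01% of its exon bases lie opposite exons of the gene model Gm6225.

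The NR4A receptors are transcription factors that act without a known ligand, and PTH induces all of them rapidly in osteoblasts. Nr4a1 and Nr4a3 were lower with dexamethasone, and Nr4a2 did not pass the test. Nr4a1 had 1204, 1173 and 1234 normalized counts in the controls and 893, 959 and 823 with dexamethasone. Nr4a2 had 469, 512 and 479.8 in the controls and 466, 459 and 434 with dexamethasone. Nr4a3 had 268, 267 and 297 in the controls and 95.4, 189.7 and 80.2 with dexamethasone. For Nr4a3 the dexamethasone libraries were far apart, and replicate 2 lay between its group and the controls. The log2 fold changes were -0.43 for Nr4a1 (standard error 0.0588, limma adjusted p = 4.10e-07) and -0.10 for Nr4a2 (95% interval -0.26 to 0.05, limma adjusted p = 0.205). For Nr4a3 it was -1.28 (standard error 0.191, limma adjusted p = 1.81e-06). Without dexamethasone replicate 2 it was -1.65 (limma adjusted p = 1.30e-13), and without dexamethasone replicate 3 it was -1.04 (limma adjusted p = 7.49e-06). Nr4a2 passed the test at the same total, where limma gave -0.22 with an adjusted p of 0.00782, and in none of the 16 further settings.

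Ratios within each library were again taken on (normalized count + 1). That of Nr4a1 to Nr4a2 was 2.56, 2.29 and 2.57 in the controls and 1.92, 2.09 and 1.90 with dexamethasone. The ratio of Nr4a1 to Nr4a3 was 4.48, 4.38 and 4.14 in the controls and 9.27, 5.04 and 10.1 with dexamethasone. Neither ratio overlapped between the groups, and each had an exact two-sided permutation test p of 0.1, the smallest possible here. In each dexamethasone library Nr4a3 was thus lower relative to Nr4a1, and Nr4a1 lower relative to Nr4a2, than in any control library. Dexamethasone replicate 2 was the highest of its group for 4 of the 9 tested members (Nr4a1, Nr4a3, Pde4b and Pde4d) and for 5 of 14 tested genes on a list of other cAMP-induced genes, and replicate 1 was the highest for the other 5 members and for 8 of the 14. The genes closest in pattern to Nr4a1 among the same 12020 genes were Hyi, Trim23 and Uty, at root mean square distances of 0.0163, 0.0288 and 0.0364 on the log2 scale. Their log2 fold changes, -0.44, -0.42 and -0.43, were again similar to that of the gene itself.

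The promoters of the 3 Nr4a genes are shown since each holds several CRE half-sites. These genes were chosen as known targets of cAMP, so the number of half-sites is given as a description and the share of all promoters is not independent of the choice. In the windows of 300 bases (250 before and 50 after the start) of the RefSeq table, each of these promoters held 4 CRE half-sites (TGACG, or CGTCA as the other strand reads), all before the start. At least 4 were found in 0.231% of the 32851 promoters of the table, and at least 1 in 20.8%. The sequences run 5′ to 3′ in the direction of transcription over the 250 bases before the start, with the half-sites in capitals. Nr4a1 lies at chr15:101266596-101266845 on the plus strand, Nr4a2 at chr2:57124004-57124253 on the minus strand, and Nr4a3 at chr4:48045055-48045304 on the plus strand.
Nr4a1: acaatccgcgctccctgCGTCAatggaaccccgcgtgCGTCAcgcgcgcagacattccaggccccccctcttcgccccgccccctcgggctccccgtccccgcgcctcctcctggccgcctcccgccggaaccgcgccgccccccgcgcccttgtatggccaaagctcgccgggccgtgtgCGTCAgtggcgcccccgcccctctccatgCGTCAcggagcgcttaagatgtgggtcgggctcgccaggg
Nr4a2: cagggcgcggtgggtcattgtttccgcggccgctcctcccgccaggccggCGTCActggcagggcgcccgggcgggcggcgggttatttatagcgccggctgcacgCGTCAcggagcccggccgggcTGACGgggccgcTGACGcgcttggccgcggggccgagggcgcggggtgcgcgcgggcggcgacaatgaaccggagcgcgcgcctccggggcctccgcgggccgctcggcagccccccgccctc
Nr4a3: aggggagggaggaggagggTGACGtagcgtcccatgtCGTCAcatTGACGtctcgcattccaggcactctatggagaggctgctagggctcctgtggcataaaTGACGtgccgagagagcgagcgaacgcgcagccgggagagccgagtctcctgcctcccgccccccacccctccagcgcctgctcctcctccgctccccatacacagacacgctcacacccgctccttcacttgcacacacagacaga

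The half-sites began 233, 213, 69 and 40 bases before the start of Nr4a1, 200, 144, 123 and 111 bases before that of Nr4a2, and 231, 213, 205 and 147 bases before that of Nr4a3. The longest run of bases shared by the windows of Nr4a1 and Nr4a2 on the same strand had 12 bases and spanned a half-site, gCGTCAcggagc, from 41 and 145 bases before the respective start. The full palindromic CRE, TGACGTCA, which holds a half-site on each strand, occurred in 1.79% of all promoters and in 0 of the 17 promoters listed for 9 members, Crem not being in the table. The same 17 held 0 matches, on either strand, to AAAGGTCA, the element that NR4A receptors bind as monomers, found in 1.51% of all promoters. They held 0 matches to AGAACA followed after 3 bases by TGTTCT, a form of the glucocorticoid response element found in 3 of the 32851 promoters. No match says only that these letters are not in these windows.

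**Figure D2:**
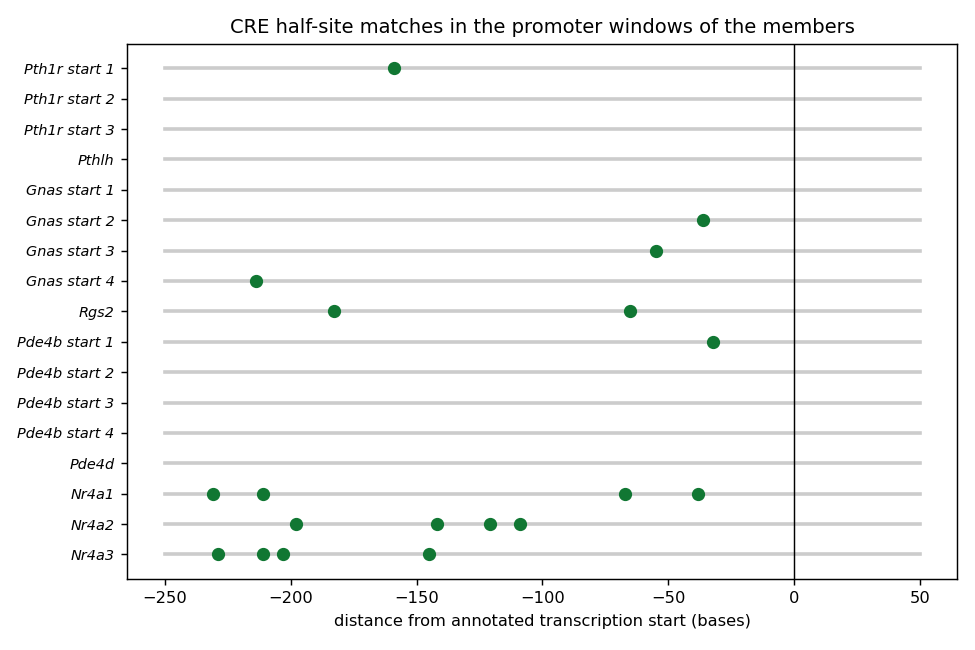
Matches to the CRE half-site (green points, on either strand) in the 17 RefSeq promoter windows of 9 members, by distance in bases from the annotated start (horizontal axis, negative before the start). Each of the 3 Nr4a promoters holds 4 matches, Rgs2 holds 2, and 5 further windows hold 1 each.

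Rgs2, the member with higher values, has 2 half-sites, 185 and 67 bases before its start, a number reached by 5.01% of all promoters. Its window is shown for comparison with the members that were lower, at chr1:144004150-144004399 on the minus strand.
Rgs2: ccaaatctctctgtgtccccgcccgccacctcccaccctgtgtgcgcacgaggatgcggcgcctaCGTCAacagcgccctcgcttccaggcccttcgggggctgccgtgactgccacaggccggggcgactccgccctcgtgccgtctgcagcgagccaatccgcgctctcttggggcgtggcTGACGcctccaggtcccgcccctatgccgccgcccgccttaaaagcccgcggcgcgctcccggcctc

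**Figure D3:**
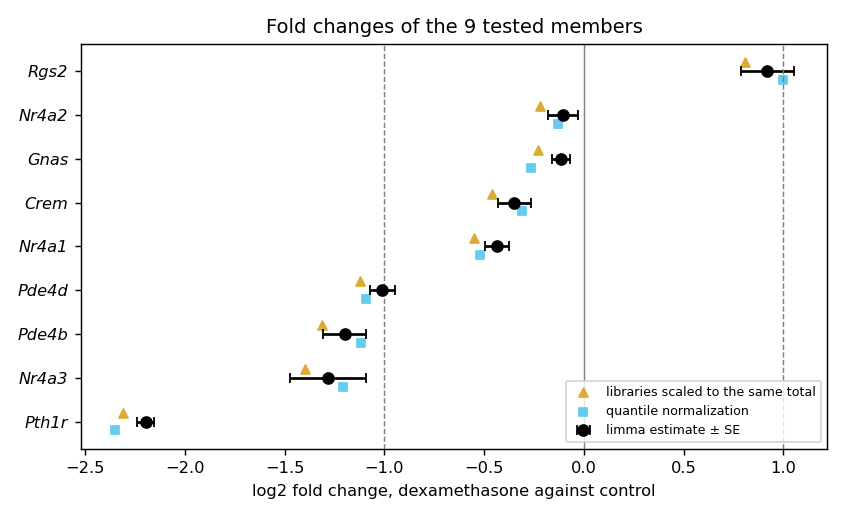
Log2 fold change of the 9 tested members, dexamethasone against control (horizontal axis), as estimated by limma with its standard error (black), after scaling to the same total (yellow triangles) and after quantile normalization (blue squares), with the cut-offs of -1 and 1 dashed. Pth1r, Nr4a3, Pde4b and Pde4d lie past -1 under each of the 3 scalings, and Rgs2 lies between 0.81 and 1.00.

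Per kb of joined exons, the order of the members in the controls ran from Pth1r through Nr4a1, Gnas, Nr4a2, Pde4d, Crem, Nr4a3, Pde4b and Rgs2 to Pthlh. Nr4a1 had 343 ± 8.63 (SD, n = 3), Gnas 268 ± 7.74 (SD, n = 3) and Nr4a2 120.0 ± 5.46 (SD, n = 3) normalized counts per kb of exon. Pde4b at 28.0 ± 1.72 (SD, n = 3) and Rgs2 at 25.8 ± 2.31 (SD, n = 3) per kb were neighbours whose values overlapped. With dexamethasone Nr4a1 at 254 ± 19.4 (SD, n = 3) and Gnas at 247 ± 11.7 (SD, n = 3) per kb overlapped. Pde4d at 51.0 ± 4.55 per kb overlapped both Crem at 53.5 ± 1.37 and Rgs2 at 49.1 ± 3.44 (SD, n = 3 each). Crem and Rgs2 did not overlap with each other. Rgs2 had thus moved past Pde4b and Nr4a3. The lengths are those of all exons joined in GENCODE M21, which may differ from the annotation the authors used.

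The other genes of the pathway were taken from 8 lists with 151 genes, of which 119 were tested. Of these 119, 21 were differentially expressed and higher and 14 lower, or 29.4% beside 22.3% of all tested genes, and their median log2 fold change was 0.10. The median of the 9 tested members was -0.43, and the difference between them and these genes was not tested. The counts of the single lists below stand beside 11.7% of all tested genes called higher and 10.6% called lower.

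**Figure D4:**
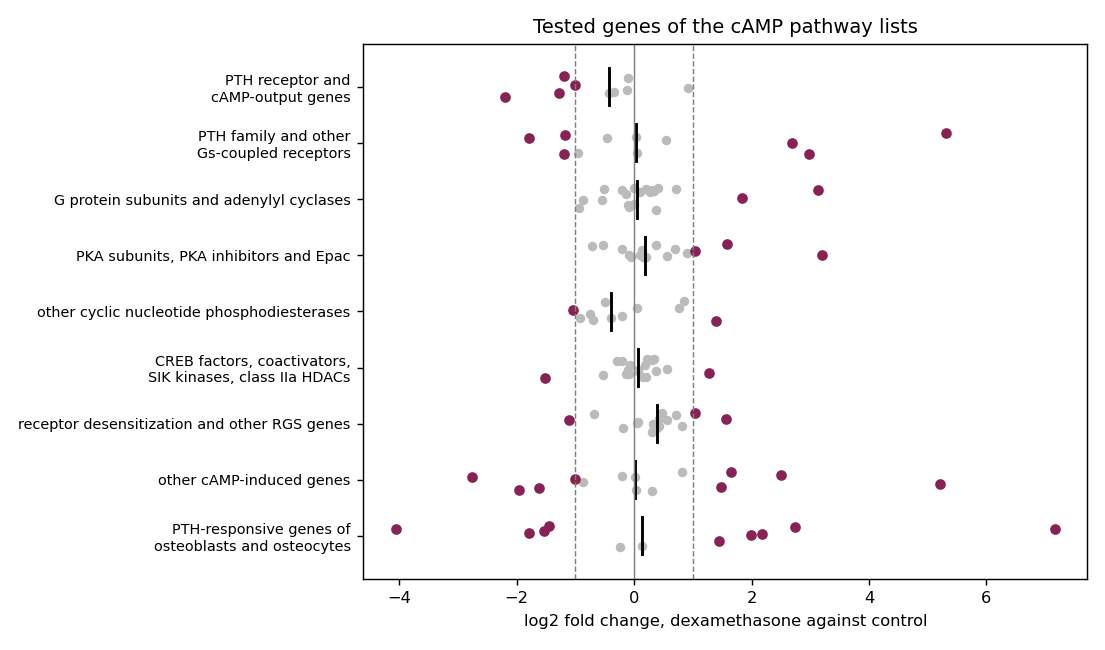
Log2 fold changes, dexamethasone against control (horizontal axis), of the tested genes in the set of members and in 8 further pathway lists (rows). Purple points are differentially expressed genes, grey points are others, black bars are the medians of the lists and dashed lines the cut-offs, with the lists of cAMP-induced and PTH-responsive genes spreading widely to both sides of 0.

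Among 20 genes of the PTH family and of other Gs-coupled receptors of bone, 11 were tested, 3 were higher and 3 lower. Calcrl, the receptor subunit for CGRP and adrenomedullin, rose by 2.98 on the log2 scale, from 71.3 ± 14.5 to 561 ± 30.5 (SD, n = 3 each). Its partner Ramp1, which makes it a CGRP receptor, had a log2 fold change of -1.79, from 249 ± 19.9 to 71.2 ± 5.60 (SD, n = 3 each). Adora2b, an adenosine receptor, rose with a log2 fold change of 2.68 (43.1 ± 8.14 to 281 ± 35.7, SD, n = 3 each). The median log2 fold change of the 11 was 0.03, or -0.08 at the same total, and it depended on which genes were tested, being -0.29 without a filter and -0.96 with a minimum mean of 100.

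Of 26 G protein and adenylyl cyclase genes, 20 were tested, 2 were differentially expressed and higher and 0 lower, among them 6 without an adjusted p under 0.05. Gnb4, a β-subunit, rose from 995 ± 43.1 to 8778 ± 144 (SD, n = 3 each), a log2 fold change of 3.14. Adcy7, an adenylyl cyclase, rose from 286 ± 6.62 to 1024 ± 7.45 (SD, n = 3 each), a log2 fold change of 1.84. Gnai2, an inhibitory α-subunit with the highest mean of the list, had a log2 fold change of -0.14. Among 16 tested genes of PKA and of Epac, the other cAMP sensor, 3 were differentially expressed and higher and 0 lower. Rapgef4 (Epac2) rose with a log2 fold change of 3.19 (40.3 ± 8.84 to 372 ± 16.2, SD, n = 3 each). Prkar2b, a regulatory subunit of PKA, rose with one of 1.58 (5254 ± 50.4 to 15746 ± 394, SD, n = 3 each). The anchoring protein gene Akap12 had a log2 fold change of 1.04, which was 0.93 at the same total. Prkar1a, the regulatory subunit with the highest mean, had one of -0.08 (limma adjusted p = 0.0565).

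The other phosphodiesterases had 11 tested genes, with 1 higher (Pde1b, a calcium-dependent enzyme, 1.39) and 1 lower (Pde1c, -1.04). Pde1c was short of the cut-off with a pseudocount of 8 (-0.89), after quantile normalization (-0.91) and without control replicate 2 (-0.97), dexamethasone replicate 1 (-0.98) or dexamethasone replicate 3 (-0.81). Pde8a, the most abundant, had a log2 fold change of -0.70, short of the cut-off. In the list of CREB, its coactivators, the SIK kinases and the class IIa histone deacetylases, all 19 genes were tested and 17 were not called. Sik1, a kinase that keeps CREB coactivators out of the nucleus, rose from 1257 ± 59.1 to 3033 ± 81.8 (SD, n = 3 each), a log2 fold change of 1.27. Mef2c, a transcription factor held in check by class IIa histone deacetylases, fell from 5079 ± 149 to 1768 ± 71.4 (SD, n = 3 each), a log2 fold change of -1.52, and Mef2a, the most abundant, had -0.09.

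The list of genes for receptor desensitization and recycling and of other RGS genes had 17 tested genes of 23, with 2 higher and 1 lower. Its median log2 fold change was 0.39, or 0.27 at the same total. Grk5, a receptor kinase, rose from 1826 ± 5.41 to 5433 ± 139.6 (SD, n = 3 each), a log2 fold change of 1.57, and Arrb2, β-arrestin 2, had 1.04, which was 0.92 at the same total. Grk4 fell with a log2 fold change of -1.10, and Vps35, part of the retromer that recycles receptors, had one of 0.05 that was -0.07 at the same total.

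The other cAMP-induced genes moved in both directions, with 4 higher and 4 lower of 14 tested. Areg, an EGF receptor ligand, rose from 6.13 ± 1.23 to 261 ± 26.0 (SD, n = 3 each), a log2 fold change of 5.21. Egr1, an early-response transcription factor, rose from 2379 ± 73.3 to 13524 ± 703 (SD, n = 3 each), a log2 fold change of 2.51. Inhba, the activin βA-subunit gene, fell from 38799 ± 465 to 5721 ± 162 (SD, n = 3 each), a log2 fold change of -2.76. The glucocorticoid-induced list holds 2 of the 17 genes of this list, Per1 and Dusp1, and both were higher, with 1.49 and 1.64. A list of 18 genes that tissue dissociation is known to induce shares 7 genes with it. Of that list 17 were tested, 5 were higher and 2 lower, with a median log2 fold change of 0.76, so that Nr4a1, Nr4a3 and Crem were lower in libraries where several other early genes, such as Jun at 1.58, were higher. The part of dissociation in these values was not tested.

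The PTH-responsive genes of osteoblasts and osteocytes also split, with 5 higher and 4 lower of 11 tested. The list is not sorted by the direction in which PTH moves each gene, so the split gives no measure of PTH signalling. Dmp1, an osteocyte matrix gene, rose from 38.5 ± 2.66 to 5639 ± 326 (SD, n = 3 each), a log2 fold change of 7.16, and Fgf2 rose with one of 2.74. Igf1, a growth factor that PTH raises in bone, fell from 2034 ± 68.9 to 122 ± 5.13 (SD, n = 3 each), a log2 fold change of -4.05. The Notch ligand gene Jag1 fell from 10366 ± 230.3 to 3785 ± 95.8 (SD, n = 3 each), a log2 fold change of -1.45. The genes for RANKL (Tnfsf11), sclerostin (Sost) and Fgf23, which PTH regulates in bone, are not among the genes of the table analysed here.

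Markers of other cell types were checked for the libraries as a whole, and their part in the members' values was not tested. The summed level of 8 pan-hematopoietic genes was 117 to 147 normalized counts in the controls and 792 to 851 with dexamethasone, mostly Cd53 and Itgb2, of which both were differentially expressed and higher. Of the 5 tested genes of this list 2 others (Coro1a and Laptm5) were lower, and Ptprc, which all leukocytes carry, had at most 5.81. Of 7 neutrophil markers 5 were tested, and 0 of these were differentially expressed. The 8 chondrocyte markers, from a cell type in which Pth1r and Pthlh also act, summed to 5966 to 6422 in the controls and 22128 to 24981 with dexamethasone. This was mostly Sox9 and Col2a1, which were both higher, while Comp was lower, Acan had at most 6.54 and Col9a1 and Matn1 had 3 reads or fewer in every library. Endothelial markers summed to 6479 to 6718 and 8453 to 9586, with Cdh5 and Tie1 at 3 reads or fewer in every library. Of the 6 tested endothelial genes 1 was differentially expressed and higher and 0 were lower. Osteocyte markers summed to 8220.3 to 8759.6 and 18449 to 19774, and of 4 tested genes 1 was called higher and 0 lower. Smooth muscle and pericyte markers summed to 148094 to 155942 and 21899 to 23356, of which Acta2 was the most. Of 5 tested smooth muscle and pericyte genes 0 were called higher and 1 lower, and their median log2 fold change was 0.06. Macrophage and osteoclast markers summed to 14111 to 14707 and 9055 to 9658, mostly Ctsk. Of the 5 tested genes of this list 1 was differentially expressed and higher and 2 were lower. Ctss, Acp5 and Ocstamp were under the minimum for testing, and Adgre1 and Dcstamp are not among the genes of the table. Lymphocyte, erythroid, adipocyte and skeletal muscle markers each summed to at most 79.3 in every library.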

How the data were processed

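RNA from sorted bone cells was sequenced from a stranded poly(A) kit in 3 control and 3 dexamethasone libraries. Alignment and counting per gene were done by the authors in STAR 2.7.10a, and normalization in DESeq2 1.36.0. The submitters' processing notes name GRCm39, and the annotation release and strand setting are not given in the sources used here. The deposited values form a signal, in which each gene's read count is divided by the size factor of its library. All values (100%, within 0.001 of a read) were whole multiples of the value of 1 read, so reads were recovered, and 0 columns were left out. Intervals and the limit of 3 reads cover counting error only.

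Symbols came from GENCODE M21 (28087 of 29616 genes), and promoters from RefSeq on GRCm38.p6, matched by symbol for 9 of 10 members. No coordinates of the authors' build are given. The main test was limma 3.58.1 (R 4.3.3) with a mean-variance trend on log2 (normalized count + 1), with Benjamini-Hochberg adjustment over the genes whose mean reached 10. The fit was also tested on simulated data. The members and lists were chosen with earlier results of these data known. From each of the 8 pathway lists, the text names the differentially expressed genes of largest fold change (up to 3, each with a mean of 100 or more) and the gene with the highest mean. For Pth1r and Nr4a1 it names the 3 genes of closest pattern. Other genes were chosen after their values were seen. Each result was recomputed with a pseudocount of 0.5 or 8, with other filters, at the same total and after quantile normalization. It was also recomputed without the trend, by edgeR 4.0.16 and by DESeq2 1.42.0 (both on the whole reads), with a block for the replicate number, and with single libraries omitted. Libraries of a group differed by more than sampling noise (chi-square over genes, 3.52 to 29.6 per degree of freedom).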

Additional observations from a re-analysis of the deposited data

How the results depend on the processing

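The log2 fold changes of the 9 tested members kept their direction in all 153 values from 17 alternatives, and 2 values, both of Pde4d, lost the call. Pthlh was tested only without a filter, where it was the fifth member called (limma adjusted p = 0.00308). With single libraries omitted, 3 to 4 members and 3888 to 3922 genes were called. With no cut-off on the fold change 8 members and 12645 genes passed, and with a minimum mean of 100 the called genes numbered 2170, both by construction. The 2 calls among the other phosphodiesterases became 1 with a pseudocount of 8, with a minimum mean of 100 and after quantile normalization, and were 1 to 2 with single libraries omitted, the lowest without control replicate 2. Pde1c is the gene that lost the call. Of 136 medians of the pathway lists under the alternatives, 25 moved, among them that of the other phosphodiesterases from -0.39 to 0.77 with a minimum mean of 100. The values for Pde1c and for Pthlh with single libraries omitted were added after seeing the data. The within-library ratio of Pthlh to Pth1r, on (normalized count + 1), differed by -0.16 on the log2 scale between the groups (exact permutation p = 0.8). It was 1.25 with a pseudocount of 8, and with single libraries omitted it lay between -0.64 and 0.35, above 0 without control replicate 3 (0.35) or dexamethasone replicate 1 (0.33). Among the other named genes, Vps35 (0.05) reversed to -0.069 at the same total and -0.14 after quantile normalization. The cause was not tested for any of these.

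Libraries that share a replicate number did not deviate together from their group means (correlations of -0.0999, -0.105 and -0.0199). These values cannot show whether the libraries were paired. According to the paper littermates served as controls, and which libraries came from littermates is not stated. Under the replicate block 4 members and 3897 genes were called. What depth limits is Pthlh, with 35 reads in all controls.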
